A study of Ovis aries with 27 samples.

Results

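Genes of the cell division cycle and of DNA synthesis, 10 in all, were followed in the septum of the fetal sheep heart, the muscular wall between the ventricles. They are CCND2, CCND3, CDK4, CDK2, PCNA, TYMS, CCNA2, CDK1, AURKA and ASPM. Their probes were found by gene name, RefSeq accession or description in the scanner files, and CDK1 was found by its accession. All 10 were measured, on 11 of the 15008 probes of a 1-colour Agilent array, among 699 named genes that could be tested. RNA came from 27 fetuses, 1 array each. Ewes carried vehicle or cortisol at 1 mg/kg/d. At 130 d of gestation there were 6 fetuses of vehicle-treated ewes, called control here, and 6 of cortisol-treated ewes. At 140 d there were 8 controls and 7 with cortisol. Younger fetuses were taken at 129 to 131 d and older ones at 139 to 144 d. The younger cohort had about 10 d of infusion from about 120 d, and the older cohort about 25 d from about 115 d, although another of the labels puts the start near 115 d for all ewes. The ages are separate cohorts, so a difference between ages cannot be told apart from one between cohorts or between lengths of infusion. The 8 older controls came from 7 ewes, with 1 pair of twins that the labels do not identify, so that 2 arrays there shared a mother. The tissue is a mixture of cells, so fewer dividing cells and less RNA per cell cannot be told apart.

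A cell that divides passes from a growth phase, G1, through DNA synthesis, S phase, to mitosis. Cyclins rise and fall along this path and switch on their partner kinases, the CDKs. Heart muscle cells of the sheep divide for much of fetal life, and near term many of them leave the cycle and become binucleate. The D cyclins CCND2 and CCND3 and their kinase CDK4 act in G1. CDK2 drives entry into S phase, PCNA is the clamp that holds the DNA polymerase on its template, and TYMS, thymidylate synthase, makes the DNA precursor dTMP. CCNA2 partners CDK2 and CDK1 from S phase to mitosis, CDK1 starts mitosis, AURKA builds the spindle poles, and ASPM sits at those poles. RNA of the last 4 is, in most dividing tissues, found mainly in cells that are in the cycle.

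Every value below rests on a probe of 60 bases, and the probes of the 7 members that were lower at the later age in either treatment arm are shown because the calls depend on what they bind. They read 5′ to 3′ as the scanner files give them. Capitals in the PCNA pair mark the 30 bases that both probes share.
CDK4: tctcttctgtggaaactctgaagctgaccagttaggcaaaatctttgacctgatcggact
PCNA, brighter probe: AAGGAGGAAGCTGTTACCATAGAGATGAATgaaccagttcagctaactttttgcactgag
PCNA, dimmer probe: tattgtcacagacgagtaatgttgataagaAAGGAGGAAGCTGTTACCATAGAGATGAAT
TYMS: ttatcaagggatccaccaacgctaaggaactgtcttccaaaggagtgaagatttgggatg
CCNA2: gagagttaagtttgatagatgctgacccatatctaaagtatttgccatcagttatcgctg
CDK1: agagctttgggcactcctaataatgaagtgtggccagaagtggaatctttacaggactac
AURKA: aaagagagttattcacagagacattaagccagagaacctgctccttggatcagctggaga
ASPM: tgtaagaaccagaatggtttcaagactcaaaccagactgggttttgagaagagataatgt
Apart from the PCNA pair, no member's probe shared more than 16 bases in a row with any other probe of the array on either strand, the longest being CDK2 with 16. The 11 probes held between 36.7% and 53.3% G and C, against a median of 43.3% over all probes. In the sheep reference table (assembly ARS-UI_Ramb_v3.0) TYMS overlaps ENOSF1, CCNA2 overlaps EXOSC9 and CCND2 overlaps an unnamed locus, and the other members overlap no listed gene.

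Levels are given as log2 of the spot's intensity minus the array's 75th percentile, so 0 is a spot as bright as that percentile. Levels of different genes come from different probes and cannot be set against each other. On each array between 77% and 87% of spots passed the scanner's flag for a signal well above background, and no spot was saturated (0 spots). The 75th percentile itself was 977 to 1273 in controls at 130 d and 757 to 954 in controls at 140 d, so the older control arrays were all dimmer, and its part in the results was not tested. Of the 17 heart muscle markers listed, only MB, myoglobin, had a named probe among those tested, and its level was 7.51 or higher on every array. MB itself rose between the control ages by 0.48 ± 0.15 (SE, adjusted p = 0.0282) and was 0.19 ± 0.16 in the cortisol arm (SE, adjusted p = 0.462), and its part in the members' values was not tested. Every member was well above background on all arrays except ASPM, which was so on 5 of 6, 6 of 6, 7 of 8 and 4 of 7 arrays of control 130 d, cortisol 130 d, control 140 d and cortisol 140 d. AURKA has no value on cortisol 140 d replicate 2, where its spot was an outlier.

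Control 130 d replicate 2 stands apart from its group in the members, and each member's difference between the control ages is given below with and without it. On that array TYMS was at -4.61, CCNA2 at -5.04, CDK1 at -4.74, AURKA at -4.03 and ASPM at -7.11. The other 5 controls of that age averaged -1.86 ± 0.35, -1.25 ± 0.33, -1.07 ± 0.30, -2.53 ± 0.37 and -2.58 ± 0.39 (SD, n = 5). This array was therefore 6.74-fold lower in TYMS, 13.8-fold in CCNA2, 12.7-fold in CDK1 and 2.82-fold in AURKA, and ASPM was not well above background there. PCNA was 2.01-fold lower, whereas CCND2, CCND3, CDK4 and CDK2 lay within 1.16-fold of the others. Over all probes, the array's median correlation with its group was 0.977, the lowest of the 6, and its 75th percentile, also the lowest of the 6, was 977. The array also had the highest share of spots well above background of the 6, 85.9%. On the 2823 probes that differ between the control ages without it, it lay at a median of 0.55 of the way from the younger to the older mean. Those probes were picked with this array left out, and no other array was placed the same way, so 0.55 has no reference.

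**Figure D1:**
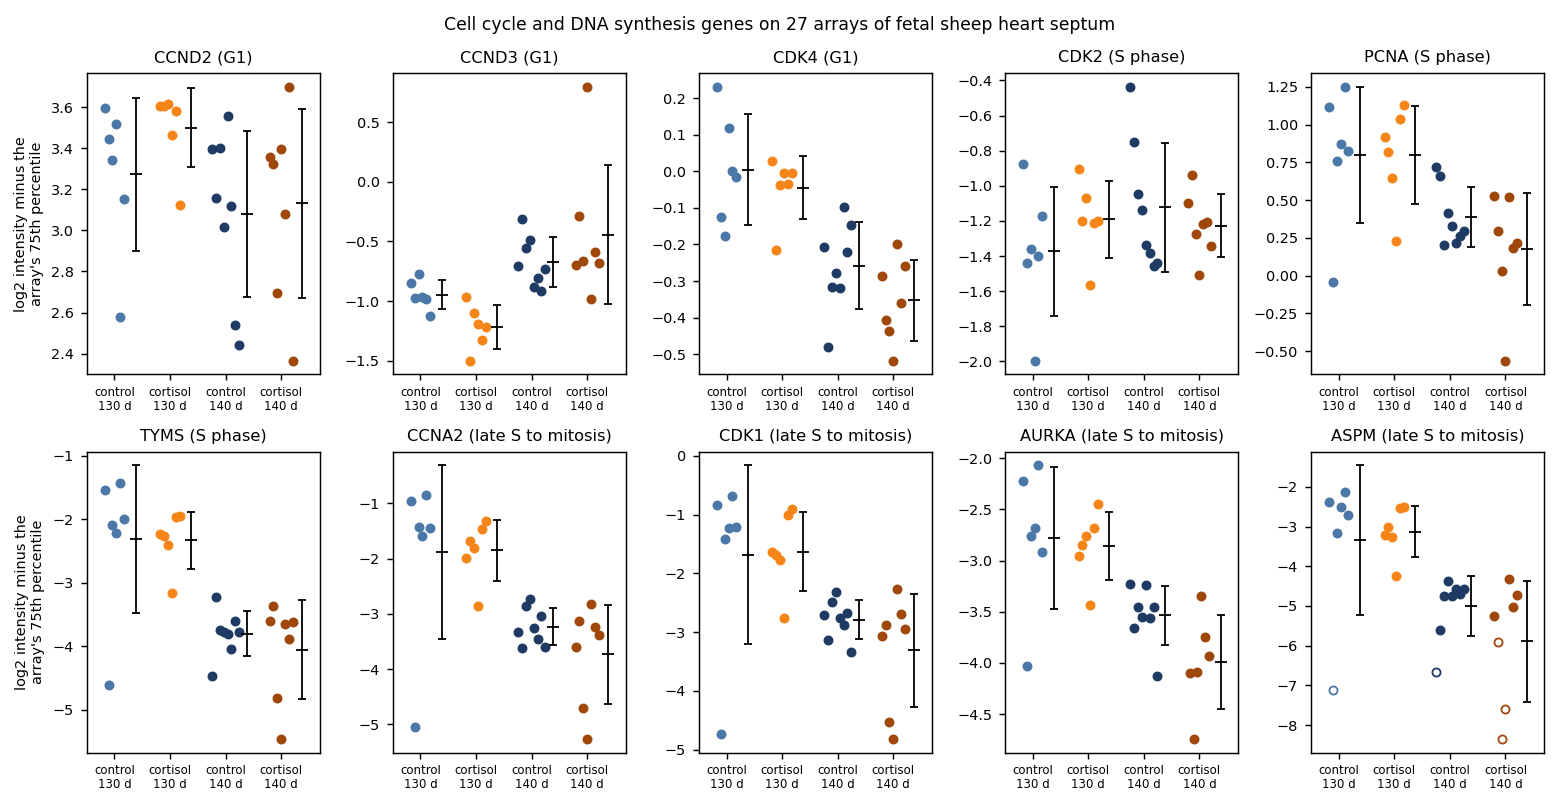
Level of the 10 members on each of 27 arrays (vertical axis, log2 intensity minus the array's 75th percentile) by group. Points are single arrays, open where the spot was not well above background, and bars are the mean ± SD; in the lower row, control 130 d replicate 2 lies far under the other 5 control points of its age.

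Between 130 d and 140 d in controls, 4 of the 10 members fell and none rose at an adjusted p under 0.05 in limma (8 against 6 arrays), where 19.1% of all 12770 probes were called, 9.35% as lower and 9.77% as higher. Those that fell were TYMS, CCNA2, AURKA and CDK4. The median difference of the 10 members was -0.58, against -0.01 over all probes tested, and 8 of 10 were negative. By role the medians were -0.19 for the 3 genes of G1, -0.41 for the 3 of S phase and -1.23 for the 4 of late S phase to mitosis. The difference between roles was not tested. The ages overlapped in every one of the 10 members (0 without overlap), whereas 5.72% of all probes had none and 2.2% had none and were lower at 140 d.

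Among the G1 genes, CCND2 lay between 2.58 and 3.59 in controls at 130 d, with a median of 3.40. At 140 d it lay between 2.44 and 3.56, with a median of 3.14. The ranges nearly coincide, and the difference was -0.19 ± 0.20 (SE, adjusted p = 0.526). CCND3 lay between -1.13 and -0.78 at 130 d (median -0.97) and between -0.92 and -0.31 at 140 d (median -0.72). The ranges overlap, and the difference of 0.27 ± 0.18 (SE) missed the threshold (adjusted p = 0.291). CDK4 ran from -0.18 to 0.23 at 130 d, with a median of -0.01, and from -0.48 to -0.10 at 140 d, with a median of -0.25. It fell by 0.26 ± 0.08 (SE, adjusted p = 0.018), a small step in the member with the narrowest spread. Without control 130 d replicate 2, CDK4 fell by 0.29 (adjusted p = 0.0124), while CCND2 was -0.16 and CCND3 0.27. The call of CDK4 was lost without control 130 d replicate 1 (-0.22, adjusted p = 0.0605). It was also lost with a median shift of each array (-0.17) and with the authors' deposited table (-0.17). The arrays lay on 5 slides, of which slides 2 and 3 held 2 arrays of each group. Slide 4 held 2 of each group at 130 d and 1 of each at 140 d. Within slides 2, 3 and 4 CDK4 was -0.40, -0.27 and -0.31. No member passed between the control ages within any of them.

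Of the S phase genes, TYMS ran from -4.61 to -1.43 in controls at 130 d, with a median of -2.05, and from -4.47 to -3.23 at 140 d, with a median of -3.78. The other 5 younger controls are above all older ones, and control 130 d replicate 2 is below them all. TYMS fell by 1.49 ± 0.38 (SE), a 2.82-fold difference with an adjusted p of 0.00758. Without replicate 2 it fell by 1.95. It kept its call with each of the 14 arrays left out in turn, and was -0.78, -1.62 and -2.10 within slides 2, 3 and 4. PCNA lay between -0.04 and 1.25 at 130 d (median 0.85) and between 0.20 and 0.72 at 140 d (median 0.31). The ages overlap, and the difference of -0.41 ± 0.18 (SE) missed the threshold (adjusted p = 0.106). The dimmer PCNA probe, which shares 30 of its bases with this one, passed it at -0.55 ± 0.18 (SE, adjusted p = 0.0298), as did the brighter one without control 130 d replicate 2 (-0.58, adjusted p = 0.0131). Within slide 2, which holds that array, PCNA was 0.15, and within slides 3 and 4 it was -0.50 and -0.71. CDK2 ran from -1.99 to -0.88 at 130 d and from -1.45 to -0.44 at 140 d, with medians of -1.38 and -1.24. It overlapped throughout, and its difference was 0.25 ± 0.16 (SE, adjusted p = 0.279), or 0.24 without control 130 d replicate 2.

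The genes of late S phase to mitosis had the lowest median of the 3 roles, and all 4 were negative. CCNA2 ran from -5.04 to -0.84 at 130 d, with a median of -1.44, and from -3.62 to -2.73 at 140 d, with a median of -3.29. Again 5 of the 6 younger controls are above all older ones, and replicate 2 is below them all. CCNA2 fell by 1.35 ± 0.47 (SE, adjusted p = 0.0456). With each of the 14 arrays left out in turn the call was kept only without replicate 2, where CCNA2 fell by 1.98 (adjusted p = 0.000148), and without control 140 d replicate 4 (-1.42, adjusted p = 0.0454). The other 12 fits gave adjusted p values from 0.0513 to 0.116. AURKA ran from -4.03 to -2.07 at 130 d (median -2.72) and from -4.13 to -3.22 at 140 d (median -3.51). It fell by 0.75 ± 0.24 (SE, adjusted p = 0.0273), and by 1.00 without replicate 2. Replicate 2 lies inside the older range here, and the other 5 lie above it. AURKA lost its call without control 130 d replicate 1 (-0.64), 3 (-0.75), 4 (-0.74) or 5 (-0.61) or control 140 d replicate 8 (-0.67).

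CDK1 and ASPM did not pass in controls. CDK1 ran from -4.74 to -0.68 at 130 d, with a median of -1.21, and from -3.34 to -2.31 at 140 d, with a median of -2.73. As in CCNA2, replicate 2 lies under the older range and the other 5 above it, and the difference was -1.11 ± 0.48 (SE, adjusted p = 0.102). Without that array CDK1 fell by 1.72 (adjusted p = 0.00116). ASPM ran from -7.11 to -2.13 at 130 d (median -2.61) and from -6.66 to -4.38 at 140 d (median -4.72). The arrays are placed as in CDK1. Its difference was -1.67 ± 0.65 (SE, adjusted p = 0.0725), and without replicate 2 it fell by 2.42 (adjusted p = 0.00207).

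In all, 7 members fell without control 130 d replicate 2, where 4 did with it. That array was singled out after the members' values were seen. Only 1 fell without control 130 d replicate 1, which holds the next to highest level of its group in TYMS, CCNA2, CDK1, AURKA and ASPM. With control 130 d replicate 3, 4 or 5 or control 140 d replicate 8 left out, 2 fell. Of all probes, 2442 were called with every array in and 2823 without control 130 d replicate 2. Over the 14 fits with an array left out, between 1650 and 2823 probes were called. With normexp background correction, which treats dim spots differently, 0 members passed and 536 probes did. TYMS was then -0.90, CCNA2 -0.94, CDK1 -0.79, AURKA -0.29 and ASPM -0.61. Within slide 2, which holds replicate 2, CCNA2 was -0.48, CDK1 -0.14, AURKA -0.32 and ASPM -1.39. On slides 3 and 4 CCNA2 was -1.28 and -2.10, CDK1 -1.08 and -1.82, AURKA -0.78 and -0.75, and ASPM -1.73 and -2.32.

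**Figure D2:**
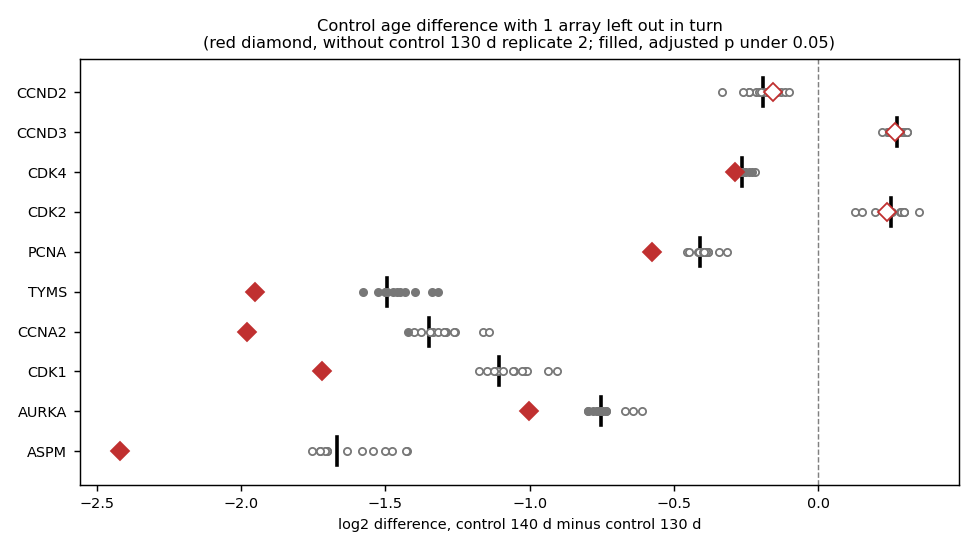
Difference between control 140 d and control 130 d in each member (horizontal axis, log2) over all arrays (black bar) and with 1 of 14 arrays left out in turn (points, filled at an adjusted p under 0.05). The red diamond leaves out control 130 d replicate 2: CDK1, ASPM and PCNA pass only there, at -1.72, -2.42 and -0.58.

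Between the ages in the cortisol arm, 7 members fell and 1, CCND3, rose (7 against 6 arrays), where 13.5% of all probes were called, 8.52% lower and 4.94% higher. TYMS, PCNA, CCNA2, CDK1, AURKA, ASPM and CDK4 fell. The median difference was -0.88 over the 10 members and -0.04 over all probes. By role it was -0.31 in G1, -0.62 in S phase and -1.78 from late S phase to mitosis, where 4 of 4 fell. TYMS and ASPM had no overlap between the ages (2 of 10), as had 4.7% of all probes, 3.16% with lower levels at 140 d.

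ASPM ran from -4.26 to -2.50 with cortisol at 130 d (median -3.12) and from -8.35 to -4.33 at 140 d (median -5.25). The lowest younger array lies just above the highest older one. ASPM fell by 2.76 ± 0.67 (SE, adjusted p = 0.00809). The size of that step is uncertain, since 3 of the 7 older arrays were not well above background. CCNA2 ran from -2.86 to -1.31 at 130 d, with a median of -1.74, and from -5.26 to -2.83 at 140 d, with a median of -3.39. It overlaps by 1 array on each side, and fell by 1.88 ± 0.49 (SE, adjusted p = 0.0112). CDK1 ran from -2.77 to -0.90 at 130 d and from -4.82 to -2.27 at 140 d, with medians of -1.66 and -2.94. The ages overlap at the lowest younger array. CDK1 fell by 1.68 ± 0.49 (SE, adjusted p = 0.0243). AURKA, on 6 older arrays, ran from -4.74 to -3.35 (median -4.01) against -3.43 to -2.45 (median -2.81) at 130 d. The ages overlap by 1 array on each side. AURKA fell by 1.14 ± 0.25 (SE, adjusted p = 0.00445).

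TYMS ran from -3.17 to -1.94 with cortisol at 130 d (median -2.25) and from -5.46 to -3.36 at 140 d (median -3.65). All older arrays are below all younger ones. TYMS fell by 1.72 ± 0.39 (SE, adjusted p = 0.00453), or 3.30-fold. PCNA lay between 0.23 and 1.13 at 130 d and between -0.56 and 0.53 at 140 d, with medians of 0.87 and 0.22. It fell by 0.62 ± 0.18 (SE, adjusted p = 0.0254), and its dimmer probe by 0.57 ± 0.18 (SE, adjusted p = 0.0365). CDK2 did not differ beyond its spread, at -0.03 ± 0.16 (SE, adjusted p = 0.919, 95% interval -0.37 to 0.30).

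In G1, the D cyclins and CDK4 did not move together. CDK4 fell by 0.31 ± 0.08 (SE, adjusted p = 0.0106), from between -0.21 and 0.03 to between -0.52 and -0.20. CCND3 rose by 0.78 ± 0.18 (SE, adjusted p = 0.00615), from between -1.50 and -0.97 at 130 d to between -0.98 and 0.79 at 140 d. Its top value, on cortisol 140 d replicate 4, is 2.71-fold above the mean of 5 other arrays of the group, and over the 13 fits with an array left out the rise was between 0.57 and 0.87 and kept its call. CCND2 was -0.37 ± 0.20 (SE, adjusted p = 0.242).

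CDK1 was not called without cortisol 140 d replicate 3 (-1.48, adjusted p = 0.058) or cortisol 130 d replicate 5 (-1.56) or 6 (-1.54). PCNA was not called without cortisol 130 d replicate 1 (-0.60), 5 (-0.57) or 6 (-0.56). With normexp 0 members passed and 339 probes did, with TYMS at -1.07, CCNA2 at -1.17, ASPM at -0.94 and CCND3 at 0.53. With a median shift of each array or the authors' deposited table, CDK4 (-0.21 in both) and PCNA (-0.52 in both) lost their calls. Within slides 2, 3 and 4, with 1 or 2 arrays of each group, the 7 members that fell were negative and CCND3 positive, and none passed. TYMS was at -1.84, -1.76 and -1.92, CCNA2 at -2.08, -1.71 and -1.85, and CCND3 at 0.76, 1.05 and 0.69.

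Averaged over both arms, 7 members fell and CCND3 rose, where 32.1% of all probes were called, 17.9% as lower and 14.2% as higher. TYMS fell by 1.61 ± 0.27, CCNA2 by 1.62 ± 0.34, CDK1 by 1.40 ± 0.34 and AURKA by 0.94 ± 0.17 (SE). ASPM fell by 2.21 ± 0.47 (SE). PCNA fell by 0.52 ± 0.13 and CDK4 by 0.29 ± 0.05, and CCND3 rose by 0.52 ± 0.13 (SE). The adjusted p of these 8 lay between 7.93e-05 (TYMS) and 0.00333 (PCNA). The same number, 8, passed with each of the 27 arrays left out in turn, where between 3674 and 4865 of all probes did. CCND2 (-0.28 ± 0.14) and CDK2 (0.11 ± 0.11, SE) did not pass (adjusted p = 0.134 and 0.498).

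**Figure D3:**
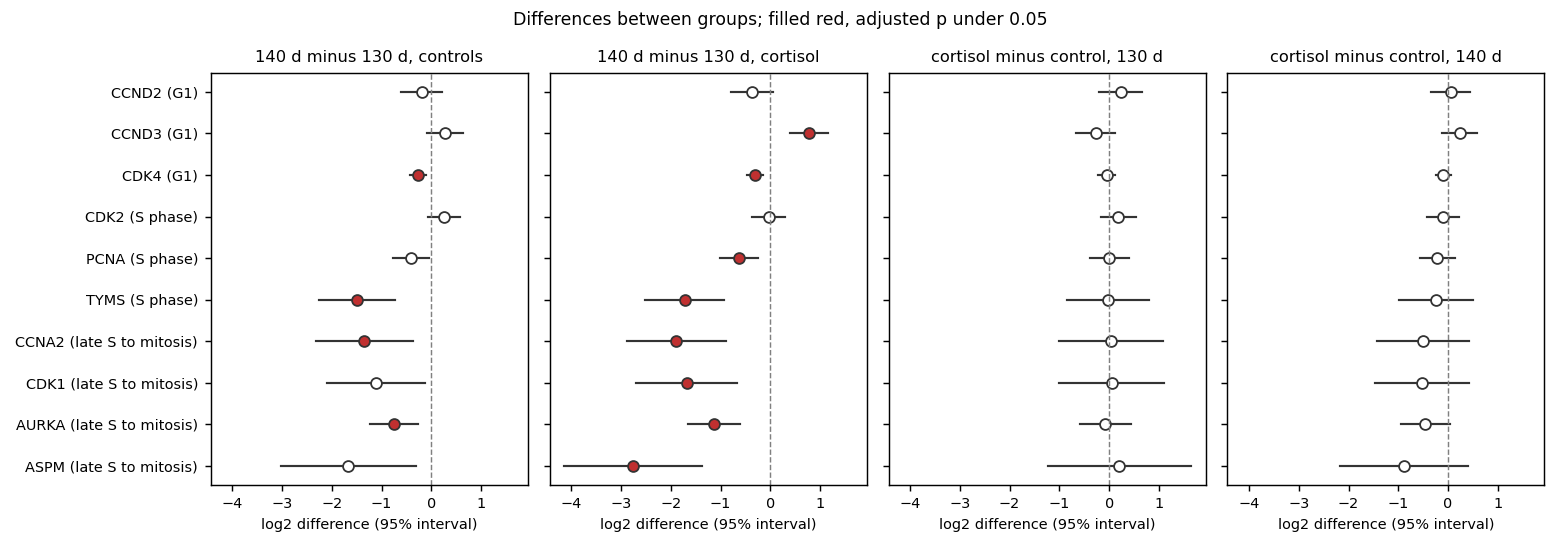
Difference of each member between groups (horizontal axis, log2, with the 95% interval) in 4 comparisons, ordered from G1 to mitosis. Filled points passed an adjusted p under 0.05: 4 in controls between the ages, 8 in the cortisol arm and 0 for cortisol at either age.

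Cortisol against control gave no call in any member at 130 d, at 140 d or averaged over the ages, and none over all probes (0 of 12770 each, 0% called, limma). At an unadjusted p under 0.05, 455 probes passed at 130 d (3.56%), 726 at 140 d (5.69%) and 352 averaged over the ages (2.76%), with none of the 10 members among them. At 130 d the 10 differences ran from -0.27 (CCND3) to 0.23 (CCND2), with a median of 0.02. TYMS differed by -0.02, with a 95% interval from -0.84 to 0.81. CCNA2 differed by 0.04, and the interval of ASPM ran from -1.23 to 1.65 around 0.21. CDK4 had a tighter interval, from -0.22 to 0.12. Without control 130 d replicate 2 the values at 130 d were -0.48 for TYMS, -0.60 for CCNA2, -0.56 for CDK1, -0.32 for AURKA and -0.55 for ASPM, and none passed. Averaged over the ages the median of the members was -0.12. Cortisol 130 d replicate 4 was the lowest of its group in PCNA, TYMS, CCNA2, CDK1, AURKA and ASPM, at -3.17 in TYMS and -2.86 in CCNA2.

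At 140 d the median difference with cortisol was -0.23 over the members and -0.04 over all probes, and 8 of 10 were negative. The genes of late S phase to mitosis were 4 of 4 negative without passing: CCNA2 -0.50 ± 0.45, CDK1 -0.53 ± 0.46, AURKA -0.46 ± 0.24 and ASPM -0.89 ± 0.63 (SE, adjusted p = 0.811, 0.808, 0.808 and 0.808). AURKA had the smallest unadjusted p of the 10, at 0.0655. Replicates 3 and 4 of the cortisol group hold its lowest values in TYMS, CCNA2, CDK1 and ASPM. TYMS was at -4.81 and -5.46 against a mean of -3.62 ± 0.18 (SD, n = 5) on the others, and CCNA2 was at -4.70 and -5.26 against -3.24 ± 0.29 (SD, n = 5). In both genes the other 5 cortisol arrays lie inside the range of the controls, in CCNA2 from -3.60 to -2.83 against -3.62 to -2.73. Replicate 4 also had the lowest 75th percentile of all arrays, 602, and the lowest median correlation with its group over all probes, 0.957, and replicate 3 had 818 and 0.982.

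A test of whether the effect of cortisol differed between ages called no member and no probe (0 of 12770, 0%, limma), with 743 probes at an unadjusted p under 0.05 (5.82%). CCND3 had the smallest unadjusted p, 0.0586, at 0.50 ± 0.25 (SE, adjusted p = 0.865). It was lower with cortisol at 130 d (-0.27) and higher at 140 d (0.23). The other 9 members were negative, from -1.09 in ASPM to -0.04 in CDK4. Without control 130 d replicate 2, CCNA2 was 0.09, CDK1 0.03 and TYMS 0.23.

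Members differed in how much they varied among fetuses of one group. The within-group SD was 1.28 in ASPM, 0.94 in CDK1, 0.92 in CCNA2 and 0.73 in TYMS, above those of 99.1%, 96.9%, 96.6% and 93.2% of all probes, whose median was 0.29. CDK4, at 0.12, was under nearly all, with 1.25% of probes below it. The value of ASPM rests in part on 5 arrays where its spot was not well above background. AURKA (0.46), CCND2 (0.38), PCNA (0.34), CCND3 (0.34) and CDK2 (0.30) lay between. Without control 130 d replicate 2 and cortisol 140 d replicates 3 and 4, arrays left out after their values were seen, ASPM was at 0.64, CDK1 at 0.43, CCNA2 at 0.39 and TYMS at 0.35, against a median of 0.26.

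**Figure D4:**
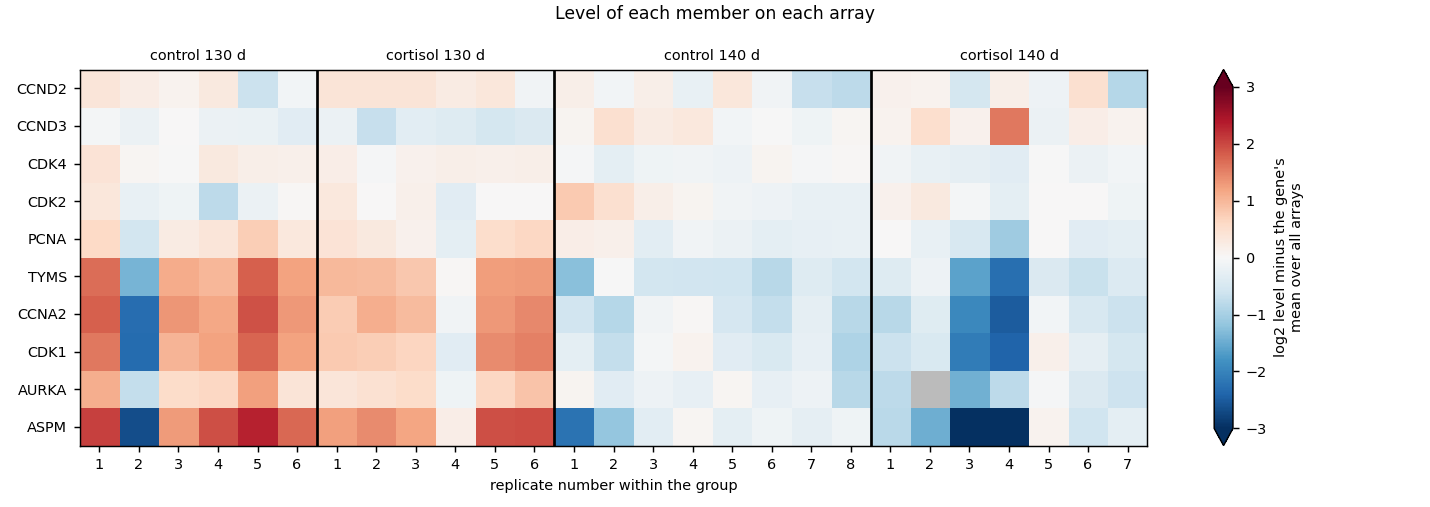
Level of each member on each of 27 arrays as the log2 difference from the gene's mean over all arrays (colour, red above and blue below, ends at 3), with arrays by group and replicate. TYMS, CCNA2, CDK1 and ASPM are bluest at control 130 d replicate 2 and cortisol 140 d replicates 3 and 4. AURKA at cortisol 140 d replicate 4 is only 1.24-fold under the mean of 4 other arrays of its group. Grey marks the missing AURKA spot.

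From array to array within the groups, 5 members varied together, and PCNA moved with them. After group means were removed, the 10 pairs among TYMS, CCNA2, CDK1, AURKA and ASPM had correlations from 0.72 to 0.99 over 27 arrays, with a median of 0.88. CCNA2 with its partner kinase CDK1 was the highest, at 0.99. PCNA correlated with the 5 at 0.66 to 0.84. CDK4 did so at 0.31 to 0.49, CDK2 at -0.06 to 0.26, CCND2 at -0.19 to 0.08 and CCND3 at -0.34 to -0.11. The 3 G1 genes ran from -0.40 to 0.25 among themselves. These points share the array, its scaling and its RNA preparation, and 3 arrays carry much of the spread. Without those 3 the 10 pairs ran from 0.44 to 0.96, with a median of 0.72, and CCNA2 with CDK1 stayed at 0.96. With the 5, PCNA then ran from 0.33 to 0.70 and CDK4 from -0.05 to 0.34.

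**Figure D5:**
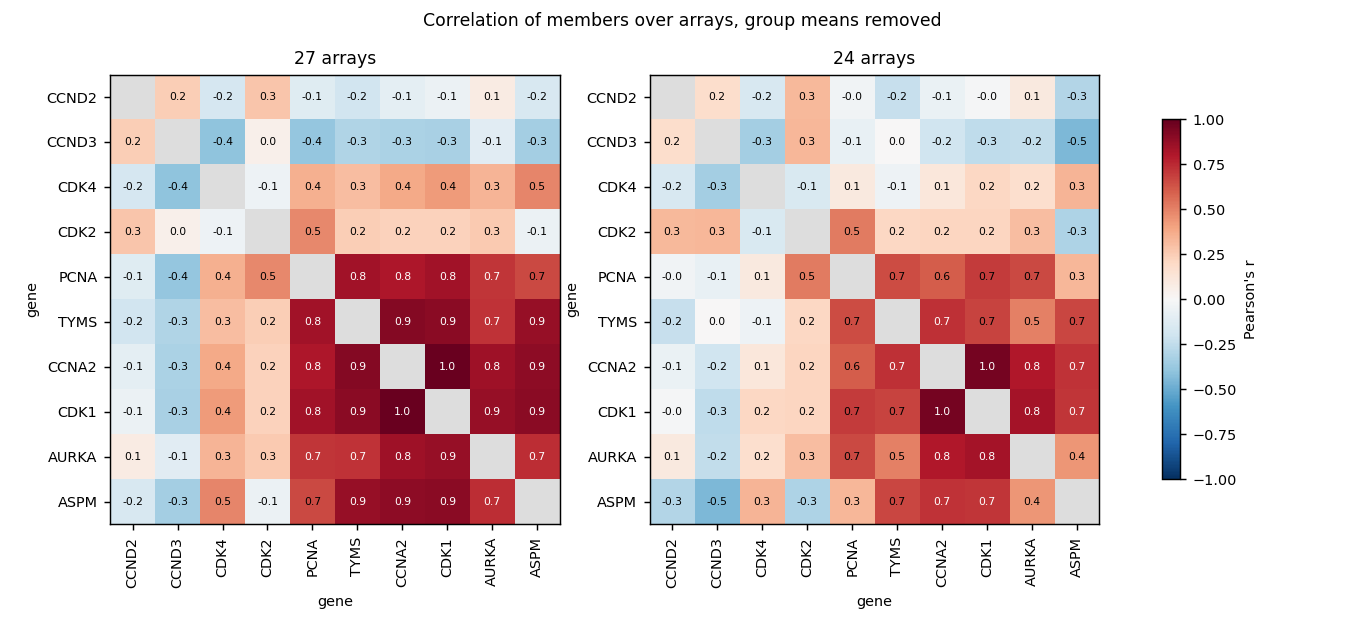
Pearson's r between members after group means were removed, over 27 arrays (left) and over 24 (right, without control 130 d replicate 2 and cortisol 140 d replicates 3 and 4). The block from PCNA to ASPM is red in both, and CCND2 and CCND3 lie near 0 or below it against that block.

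A list of 136 other cell cycle genes, drawn up with earlier results of these data known, had 9 genes measured under the names used, too few to stand for the pathway. In controls 0 of 9 rose between the ages, where 9.77% of all probes did and 9.35% fell. DNMT1, which copies DNA methylation at replication, fell by 0.58 ± 0.18, and CDK5 fell by 0.51 ± 0.12 (SE). CCNB1, the cyclin that works with CDK1 in mitosis and was named from its description, was -1.13 ± 0.45 (SE, adjusted p = 0.0769). In the cortisol arm, where 8.52% of all probes were called lower and 4.94% higher, 4 fell and 1 rose. Those that fell were CCNB1 by 1.57 ± 0.46, H2AZ1, a histone variant, by 0.55 ± 0.15, DNMT1 by 0.54 ± 0.18 and CDK5 by 0.61 ± 0.12 (SE). MYC rose by 0.63 ± 0.21 (SE, adjusted p = 0.0469), whereas its other probe was 0.49 and did not pass (adjusted p = 0.0957). The CDK inhibitors CDKN1B (0.00 and 0.22) and CDKN1C (-0.47 and -0.08) passed in neither arm. The median over the 9 was -0.44 in controls and -0.46 in the cortisol arm. With cortisol 0 of 9 passed at either age.

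By likeness to the mean of TYMS, CCNA2, CDK1, AURKA and ASPM over the 27 arrays, the nearest of 689 other named genes were CCNB1 (r = 0.99), PMCH (0.94), LMNB1 (0.93), H2AZ1 (0.91) and CIB1 (0.82). With group means removed they were 0.98, 0.93, 0.88, 0.84 and 0.68. These genes were picked for this pattern on the same arrays, so their differences are a description with no test. LMNB1, a lamin of the nuclear envelope, differed between the ages by -1.16 in controls and -1.62 with cortisol. In the reference table PMCH, a neuropeptide gene, overlaps PARPBP by 551 bases, and LMNB1 overlaps an unnamed locus by 842 bases. The probes of PMCH and LMNB1 may therefore not read those genes alone. Of all probes, 72 had r over 0.9, 6 of them of the members and 60 unnamed. The probes of TYMS, CCNA2, CDK1, AURKA and ASPM make up that mean, so a high r of theirs was largely set in advance.

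Markers of other cells also differed between the control ages, as did interferon genes, which stand for a state and not a cell type. Of the red blood cell markers 3 of 4 measured fell (HBB, HBG and AHSP), of the immune markers 3 of 7 (ITGB2, FCER1G and LYZ) and of the interferon genes 6 of 6, where 9.35% of all probes fell and 9.77% rose. Of the adipocyte markers 3 of 6 rose (LEP, PLIN1 and LPL), and none of 6 endothelial or 6 fibroblast markers passed (0 each). In the cortisol arm, where 13.5% of all probes were called, 0 of the immune markers and 0 of the interferon genes passed, 1 red cell marker fell (HBG) and 2 adipocyte markers rose (PLIN1 and LPL). The mean of the 4 red cell markers was between -1.16 and -0.10 in controls at 130 d and between -3.78 and -1.12 at 140 d. That of the 7 immune markers was -3.41 to -2.28 at 130 d and -4.13 to -3.19 at 140 d. After group means were removed, the correlation of each marker with the mean of the 5 members was taken. It was 0.04 for HBB, 0.00 for HBG, 0.09 for AHSP and -0.34 for EPOR. Among the immune markers it was -0.31 for ITGB2, -0.22 for FCER1G, -0.37 for LYZ and -0.42 for CD14. CD3E, CD3D and ITGAM were positive, at 0.32, 0.28 and 0.09. LPL had the most negative, -0.63, and TIE1, an endothelial receptor, the most positive, 0.50. On control 130 d replicate 2 the mean of the red cell markers was -1.16, the lowest of its group, and that of the immune markers -3.06, inside the group's range. Of the 6 endothelial markers, PECAM1 (1.25 against 1.86 to 2.11 on the other 5), TIE1 (-3.24 against -2.73 to -2.39) and NOS3 (-2.47 against -1.96 to -1.69) were below the others on that array. SELE (-5.96 against at most -5.98) and SELP (-4.86 against at most -4.89) were just above them by small gaps, and KDR was inside their range. Of the 6 endothelial markers, 2 were not well above background on every array. The same held for 2 red cell, 2 adipocyte, 1 immune and 1 interferon marker. The smooth muscle gene CNN1 was at 2.80 against 3.48 to 4.66. Of the adipocyte markers LPL (2.30 against at most 1.53), PLIN1 (-1.03 against at most -1.36) and LEP (-3.02 against at most -3.24) were above the others. PPARG and FABP4 were inside the range of the others, and for UCP1 no such range is available. Of the fibroblast markers, VIM (6.497 against at least 7.03) and COL1A1 (-2.29 against at least -2.14) were below the others. COL1A2, COL3A1, DCN and FBLN1 were inside their range. The part of these markers in the members' values was not tested.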

How the data were processed

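The members and gene lists were chosen with earlier results of these data known. Each deposited scanner file gives a processed intensity per spot, per the file headers already corrected for background and spatial trend but not scaled between arrays. The submitters' processing notes name Feature Extraction 10.1.1.1. A table of log2 values that the authors deposited equals log2 of those intensities minus 1 constant per array (largest residual SD 2e-06, column medians 0.09 to 0.12). The genome build is not given in the sources used here.

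From the scanner files, outlying spots were dropped (266 over all arrays), spots of a probe were averaged, and log2 intensity minus the array's 75th percentile was taken. Tests covered the 12770 probes that 6 or more arrays measured well above background. PCNA has 2 probes, and the one with the higher mean stands for the gene, as for every gene named. The 4 group means were fitted once in limma 3.58.1 (lmFit, eBayes; R 4.3.3), with Benjamini-Hochberg adjustment over all probes of a comparison, in 7 comparisons. Tests are 2-sided, and the number of arrays limits precision. Each array is taken as 1 fetus, and the twins were not modelled. The p-values set each difference against the spread between arrays within groups. They take the arrays as independent, which the twins may not be. The script was tested on simulated data. The 10 members were named in the comparisons by rule, and the other genes by fixed lists or by likeness. The authors' flags for outlying spots and spots well above background were used as deposited. Same-numbered arrays of different groups correlated above 0.1 in 13 of 37 pairs of group deviations (median 0.05). No differently numbered pairs are set beside them, so these values cannot decide whether the numbers pair fetuses. The numbers were not taken to do so. No 2 arrays were copies (highest correlation 0.99). Alternatives were other scalings, normexp with an offset of 50, other filters, slide as a block or alone, the replicate number as a block, the groups compared alone, the mean of both PCNA probes, the authors' table, and each array left out. A gene of the list of other cell cycle genes is not reported here by name.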

Additional observations from a re-analysis of the deposited data

Results flagged for a closer look

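In 7 of the 40 groups of a member's values, the lowest or highest array stood apart from the others by Dixon's test at 95%; chance marks about 1 in 20 groups. Control 130 d replicate 2 was lowest in TYMS at -4.61, CCNA2 at -5.04, CDK1 at -4.74 and ASPM at -7.11, and these 4 values belong to 1 array. In CCND3, cortisol 140 d replicate 4 was highest at 0.79. In CDK4, cortisol 130 d replicate 2 was lowest at -0.21, and in CCND2, cortisol 130 d replicate 6 was lowest at 3.12.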

How the results depend on the processing

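Members called in the control age comparison went from 4 to 2 with a median shift, quantile normalization or the authors' table, to 0 with normexp, to 0 in slides 2, 3 and 4 alone, and to between 1 and 7 with an array left out. Of probes, 536 were called with normexp, 3, 5 and 2 in those slides, and 1650 to 2823 with an array left out, against 2442. The share of called probes that were higher, 51.1%, became 70.6% with a median shift and 71.3% with the authors' table. The median over all probes shifted from -0.01 to 0.15 with normexp, and by less elsewhere. In the cortisol arm members went from 8 to 0 with normexp or a slide alone, and probes from 1719 to 339 with normexp and to 1, 0 and 29 in slides 2, 3 and 4. The share higher, 36.7%, became 63.8% with a median shift, 64.2% with the authors' table and 52.2% with normexp. Averaged over arms, members went from 8 to 0, 0 and 4 in slides 2, 3 and 4, and probes from 4100 to 1551 with normexp and to 62, 25 and 391 in the slides. A share higher of 44.3% became 66.8% with a median shift and 67.6% with the authors' table. In slide 2 alone cortisol called 1 probe at 140 d. The cause of each change was not tested, and a slide alone also holds fewer arrays than the series.

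With the replicate block the difference between ages called 1 probe, and with an array left out between 0 and 2. The block gave 2499 probes in controls and lost the call of CCNA2 there (-1.34, adjusted p = 0.0678), with no other member's call changed. Under it CCND2 was 0.014 in controls between the ages and -0.039 with cortisol at 140 d, and CDK2 was 0.0065 in the cortisol arm.

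All other changes of sign were in values that passed no test. In controls between the ages, CCND2 became 0.052 with the slide block and 0.69 in slide 4, CDK2 -0.049 in slide 4 and PCNA 0.15 in slide 2. In the cortisol arm, CDK2 became 0.067 with a median shift and with the authors' table, 0.020 with quantile normalization and 7e-04 in slide 4, where CCND2 was 0.35, and CDK2 ran from -0.11 to 0.022 with an array left out. Averaged over arms, slide 4 gave CCND2 0.52 and CDK2 -0.024. For cortisol at 130 d, normexp gave AURKA 0.26, CDK4 0.012, PCNA -0.13 and TYMS 0.20; slide 2 gave AURKA 0.22 and TYMS 0.82; slide 3 gave ASPM -0.92, CCNA2 -0.82, CDK1 -0.96, CDK4 0.0089 and PCNA -0.38; slide 4 gave ASPM -0.088, CCNA2 -0.24 and CDK1 -0.016. There PCNA was -0.070 as the mean of both probes, -0.0079 with a median shift and -4e-04 with the authors' table. With an array left out, ASPM ran from -0.55 to 0.45, AURKA from -0.32 to 0.068, CCNA2 from -0.60 to 0.24, CDK1 from -0.56 to 0.28, PCNA from -0.17 to 0.11 and TYMS from -0.48 to 0.16. For cortisol at 140 d, TYMS was 0.033 with normexp and 0.19 in slide 5, where CCND2 was -0.33, CDK1 0.024 and CDK2 0.081. CCND2 was -0.27 in slide 2 and -0.13 with the slide block, and ran from -0.043 to 0.18 with an array left out. Slide 4 gave CCNA2 0.0082, CDK1 0.070 and CDK2 0.13. For the difference between ages, slide 2 gave CDK4 0.067, slide 3 AURKA 0.16 and PCNA 0.044, and slide 4 CCNA2 0.25, CDK1 0.086, CDK2 0.049 and TYMS 0.17. With an array left out CCNA2 ran from -0.74 to 0.094, CDK1 from -0.80 to 0.034 and TYMS from -0.41 to 0.23. A filter on all arrays left out ASPM, slide 1 holds 1 array, and slide 5 holds only older fetuses, so these gave no value there. A planned search for promoter motifs was not run.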
